A study of Homo sapiens with 24 samples.

Results

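The comparison described here sets D425 cells 16 h after induction of a hairpin against OTX2 beside the same cells at 0 h. D425 is an established human medulloblastoma cell line. Its members are the 3 arrays labelled shOTX2 at 16 h and the 3 arrays labelled shOTX2 at 0 h, paired by the time course they came from, 6 of the 24 arrays of the series. The 2 arrays of the single control course at 16 h and 0 h were used as background. The shOTX2 cells carried a doxycycline-inducible short hairpin RNA against OTX2. The other line is labelled control with no further description, and whether either line was 1 clone is not stated. Both lines were plated a day before induction with doxycycline, and the 16 h arrays of both were therefore later in culture, as well as later after induction, than the 0 h arrays. The 3 shOTX2 courses were independent experiments, per the design text. RNA was measured on Affymetrix U133 Plus 2.0 arrays, and all values are MAS5 signal, a linear brightness per probe set.

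OTX2 encodes a homeodomain transcription factor of the developing forebrain, midbrain and retina, and it is abundant in group 3 and group 4 medulloblastoma. Homeodomains of the OTX type, which OTX2 shares with its relatives OTX1 and CRX, bind DNA at the core TAATCC. A short hairpin RNA is processed into a small guide RNA that directs cleavage of the matching mRNA, so the loss of the protein lags behind the start of induction, and changes in other transcripts follow later still.

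The 8 arrays were alike in overall brightness, with a median signal between 16.3 and 18.3 and a highest signal between 9285 and 12935. Precision is limited by the number of arrays. The ratio of 3' to 5' actin probes, a sign of RNA or labelling quality, was 1.496 at 16 h and 1.46 at 0 h in course 1, 1.93 and 2.36 in course 2, 1.94 and 1.89 in course 3, and 1.39 at both times in the control course. Of the markers fixed for the line other than OTX2 and CRX, MYC and IMPG2 were the bright ones. MYC read 4860, 5127 and 4995 at 16 h and 5169, 5317 and 4582 at 0 h, a log2 change of -0.006 (adjusted p = 0.986). IMPG2, a photoreceptor matrix gene listed here as a group 3 marker, read 2543, 2248 and 2302 at 16 h and 2762, 2475 and 2190 at 0 h. NRL, a photoreceptor transcription factor, read 232, 120 and 159 at 16 h and 254, 402 and 160 at 0 h (log2 change -0.58, adjusted p = 0.162). GABRA5 was near the array median, between 7.8 and 28.0 on the 6 arrays, and NPR3 did not pass the filter. None of the 6 immune and endothelial markers that passed the filter was called, and their summed signal lay between 58.2 and 93.7 at 16 h and between 57.4 and 89.1 at 0 h.

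OTX2 itself was examined first. Its brighter probe set read 3596, 4683 and 4073 at 16 h in courses 1, 2 and 3, against 4417, 4839 and 4720 at 0 h. Each course was lower at 16 h, but the groups overlapped, and the mean at 16 h was 88.4% of that at 0 h. The change on the log2(signal + 16) scale was -0.18 (SE 0.059) and missed the threshold (adjusted p = 0.073). It passed when only probe sets above a signal of 50 were tested (adjusted p = 0.0498), when arrays were centred on their medians (-0.22, adjusted p = 0.0429) and after quantile normalization (-0.21, adjusted p = 0.0153). The second probe set read 2468, 3002 and 2904 at 16 h and 3198, 2898 and 2984 at 0 h, lower at 16 h in courses 1 and 3 and higher in course 2. The control course read 5268 at 16 h and 4964 at 0 h on the brighter probe set. The positions of the hairpin target and of the probes are not stated, so neither probe set can check the labels, and the arrays are named as labelled. OTX1 was near the array median throughout, with 12.5, 17.1 and 15.8 at 16 h and 9.0, 11.8 and 8.3 at 0 h (log2 change 0.28, adjusted p = 0.483).

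CRX, which encodes the homeodomain factor of photoreceptor precursors, rose. It read 328, 282 and 358 at 16 h, against 172, 119 and 138 at 0 h, and the lowest 16 h array was above the highest 0 h array. The log2 change was 1.10 (SE 0.151, adjusted p = 0.000188), and the call was kept without the course block (adjusted p = 0.0105) and without each course in turn (adjusted p from 0.000713 to 0.0166). A second, dim probe set of CRX read 20.8, 26.6 and 31.4 at 16 h and 15.8, 2.7 and 18.8 at 0 h. Its change of 0.61 was not called when all probe sets with a gene symbol were tested without the filter (adjusted p = 0.348). On the brighter probe set the control course read 195 at 16 h and 124 at 0 h, a change of 0.59 in the same direction, and the difference of the changes between the arms was 0.51 (adjusted p = 0.712).

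The promoter window of CRX is shown because it holds the OTX-type core at 2 places, and 3 other windows are shown beside it: those of FAM78A and ARHGAP26 among called rises and of SNX18 among called falls, picked after their values were seen. All are RefSeq windows of GRCh38.p14, from 250 bases before to 50 after the gene's start, written 5' to 3' on the gene's strand, with TAATCC or its reverse complement GGATTA in capitals. CRX lies on the plus strand at chr19:47821687-47821986, FAM78A on the minus strand at chr9:131277986-131278285, ARHGAP26 on the plus strand at chr5:142770127-142770426 and SNX18 on the plus strand at chr5:54517509-54517808.
CRX: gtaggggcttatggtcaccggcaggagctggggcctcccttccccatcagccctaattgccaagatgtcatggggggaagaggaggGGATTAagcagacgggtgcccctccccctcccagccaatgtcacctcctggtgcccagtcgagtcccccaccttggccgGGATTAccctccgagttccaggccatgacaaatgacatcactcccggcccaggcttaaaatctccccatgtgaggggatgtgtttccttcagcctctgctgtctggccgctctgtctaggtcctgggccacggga
FAM78A: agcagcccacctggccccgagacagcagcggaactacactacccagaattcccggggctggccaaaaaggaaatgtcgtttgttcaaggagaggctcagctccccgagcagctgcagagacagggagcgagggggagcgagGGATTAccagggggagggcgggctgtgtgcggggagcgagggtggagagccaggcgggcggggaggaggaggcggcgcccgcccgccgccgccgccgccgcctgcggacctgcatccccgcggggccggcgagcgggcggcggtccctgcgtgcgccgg
ARHGAP26: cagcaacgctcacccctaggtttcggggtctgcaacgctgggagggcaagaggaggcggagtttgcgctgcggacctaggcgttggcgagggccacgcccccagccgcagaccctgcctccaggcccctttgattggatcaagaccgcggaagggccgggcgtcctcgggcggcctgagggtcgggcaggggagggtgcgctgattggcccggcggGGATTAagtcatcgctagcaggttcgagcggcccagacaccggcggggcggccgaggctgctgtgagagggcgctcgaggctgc
SNX18: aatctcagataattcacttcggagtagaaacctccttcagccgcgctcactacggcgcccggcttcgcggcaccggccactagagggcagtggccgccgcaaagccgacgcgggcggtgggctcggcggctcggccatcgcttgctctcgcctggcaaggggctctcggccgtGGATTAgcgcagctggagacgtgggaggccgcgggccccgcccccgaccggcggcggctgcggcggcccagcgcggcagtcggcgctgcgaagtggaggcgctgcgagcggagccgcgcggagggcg
In CRX the matches start at bases 87 and 166 of the window. FAM78A read 80.6, 53.1 and 43.1 at 16 h, against 33.9, 10.4 and 8.8 at 0 h (log2 change 1.20, adjusted p = 0.00075), and its call was not kept without course 2 (adjusted p = 0.0612). ARHGAP26 read 735, 823 and 776 at 16 h, against 284, 401 and 529 at 0 h (0.96, adjusted p = 9.84e-05). SNX18, a sorting nexin of endocytosis, read 381, 346 and 394 at 16 h, against 600, 633 and 517 at 0 h (-0.62, adjusted p = 0.00228). In the control course the readings were 63.4 at 16 h and 55.0 at 0 h for FAM78A, 611 and 528 for ARHGAP26, and 446 and 467 for SNX18. The core on either strand was found in 16 of the 360 called rises with a window (4.44%) and in 4 of the 294 called falls (1.36%), beside 4.59% of the 11178 windows of tested genes. ABHD4, another called rise (0.57), also held 2 matches. Of the 15 largest rises 5 had a window and of the 15 largest falls 12, and none of these windows held the core. A match describes letters in the window and does not show binding.

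Over all 13903 genes tested, 792 (5.70%) were called at 16 h against 0 h by limma at an adjusted p under 0.05. Of these 442 were higher (3.18%) and 350 lower (2.52%), and 440 and 347 of them had the same sign in all 3 courses. The calls were made from these same courses, which favours a shared sign. The share of all genes with a shared sign is not given here, so these counts are a description. Most changes were small. The median log2 change was 0.53 among called rises and -0.50 among called falls, and 61 genes changed at least 2-fold on the log2(signal + 16) scale, 38 of them upward. The count rests on pairing the arrays by course. Without the course as a block 142 genes were called, 88 higher and 54 lower, and all 142 were among the 792. Without course 1 there were 241 calls, of which 141 rises and 78 falls were among the 792. Without course 2 there were 152, of which 100 and 51 were among them, and without course 3 there were 629, of which 286 and 217 were.

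The largest rise was that of USP18, the protease that removes ISG15 from proteins and dampens type I interferon signalling. It read 349, 295 and 184 at 16 h, against 46.5, 27.5 and 104 at 0 h, with no overlap. Its log2 change was 2.04 (SE 0.335, adjusted p = 0.000923). Course 3 moved by 0.74, against 2.55 in course 1 and 2.84 in course 2, and without course 2 the adjusted p was 0.0554. The control course, at 266 at 16 h and 145 at 0 h, moved by 0.81.

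**Figure D1:**
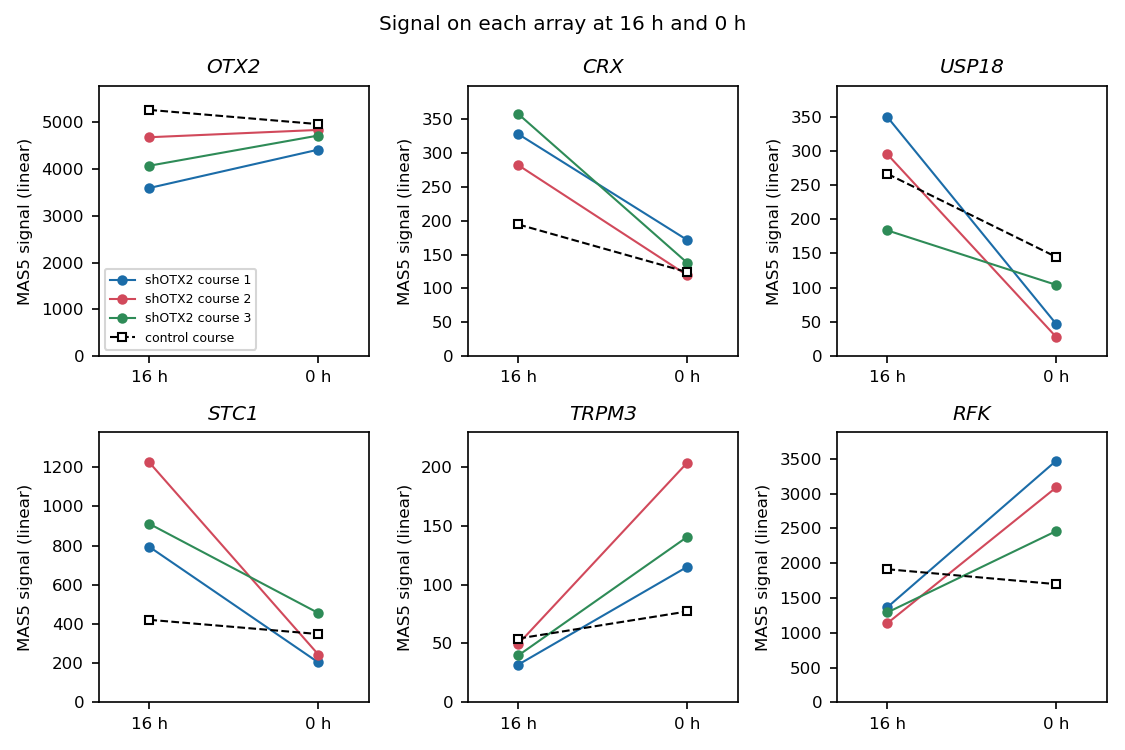
MAS5 signal (linear axis) of 6 genes on each array, 16 h at the left and 0 h at the right, with the 3 shOTX2 courses as filled circles and the control course as open squares. CRX, USP18 and STC1 were higher at 16 h and TRPM3 and RFK lower in all 3 shOTX2 courses, while OTX2 changed little.

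The next largest rises included SUSD2 and STC1, both in the list of secreted and matrix genes. SUSD2, a sushi-domain membrane protein, read 1754, 876 and 888 at 16 h, against 347, 128 and 427 at 0 h (log2 change 1.98, SE 0.269, adjusted p = 0.000185). STC1, the secreted glycoprotein stanniocalcin 1, read 794, 1224 and 911 at 16 h, against 204, 244 and 456 at 0 h (1.70, SE 0.207, adjusted p = 8.11e-05). Both genes kept their groups apart, although course 3 started highest at 0 h in each. The control course read 1110 at 16 h and 717 at 0 h for SUSD2, and 422 and 349 for STC1. INHBE, a subunit of the activins, read 1180, 1806 and 2101 at 16 h, against 441, 674 and 1050 at 0 h (1.26, adjusted p = 0.000243). In the control course it read 1409 at 16 h and 1799 at 0 h, the opposite direction. MFAP4, a protein of extracellular microfibrils, was dim at 0 h, at 21.6, 1.7 and 19.5, and read 66.9, 52.3 and 57.3 at 16 h (1.38, adjusted p = 0.00515). The control course was brighter than these at both times, at 138 at 16 h and 70.4 at 0 h, and without course 2 the call was lost (adjusted p = 0.211).

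LFNG, the glycosyltransferase that modifies Notch receptors, read 273, 127 and 148 at 16 h, against 39.8, 51.1 and 43.4 at 0 h (log2 change 1.65, SE 0.221, adjusted p = 0.000173). A second LFNG probe set changed by 0.29. The control course read 65.0 at 16 h and 23.4 at 0 h, a change of 1.04. APH1B, a subunit of gamma-secretase, read 941, 871 and 1509 at 16 h, against 438, 309 and 658 at 0 h (1.23, adjusted p = 0.000158), and the control course, at 1021 and 509, moved nearly as far (0.98).

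The remaining rises had varied roles. GADD45G, a stress-induced protein that restrains the cell cycle, read 239, 211 and 169 at 16 h, against 83.6, 43.3 and 72.0 at 0 h (1.45, adjusted p = 3.85e-05). TOX3, an HMG-box nuclear protein, read 359, 336 and 352 at 16 h, against 102, 93.3 and 190 at 0 h (1.40, adjusted p = 4.48e-05). Its 16 h arrays lay close together, and 3 kept probe sets moved by 1.32 to 1.40. NNMT, which methylates nicotinamide, read 114, 120 and 133.1 at 16 h, against 31.2, 12.5 and 49.0 at 0 h (1.64, adjusted p = 7.26e-05), while the control course read 113 at 16 h and 48.7 at 0 h, and the 3 kept NNMT probe sets ranged from 0.31 to 1.64. CHRNA3, a nicotinic receptor subunit, read 655, 385 and 455 at 16 h, against 204, 111 and 247 at 0 h (1.37, adjusted p = 0.000503). TP53INP2, a protein of autophagy, GRK5, a kinase of G protein-coupled receptors, and TNNC1, troponin C of slow and cardiac muscle, changed by 1.33, 1.28 and 1.26, but the 3 kept GRK5 probe sets ranged from 0.09 to 1.28. The transcribed pseudogene POM121L9P changed by 1.82 (adjusted p = 0.000748), with 355, 648 and 573 at 16 h, against 46.9, 132.9 and 333 at 0 h. Related copies may share its probe set, so that value is uncertain.

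For all 15 largest rises the 16 h and 0 h arrays did not overlap. They were chosen for a large change of the same sign in all courses, which favours such a gap. The share of all genes with such a gap is not given here, so this count is a description. The call was kept in 10 of the 15 without the block, in 15 without course 1, in 12 without course 2 and in 15 without course 3. POM121L9P, MFAP4, CHRNA3, INHBE and APH1B lost it without the block (adjusted p from 0.0594 to 0.0963), and USP18, POM121L9P and MFAP4 without course 2 (0.0554, 0.0554 and 0.211). In all, 9 of them kept it under every one of these settings.

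The largest fall was that of TRPM3, a cation channel of the plasma membrane. It read 32.1, 49.7 and 39.9 at 16 h, against 115, 204 and 141 at 0 h (log2 change -1.56, SE 0.159, adjusted p = 3.85e-05). All 7 of its kept probe sets were lower at 16 h, by -1.56 to -0.21, and 2 of them were called when every kept probe set was tested. The control course read 54.2 at 16 h and 77.2 at 0 h, so both control values were below the shOTX2 arrays at 0 h.

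ADAMTS1, TIMP3 and LGI2, all in the list of secreted and matrix genes, were among the largest falls. ADAMTS1, a secreted metalloproteinase, read 27.5, 31.8 and 13.1 at 16 h, against 125, 137 and 51.7 at 0 h (-1.53, adjusted p = 0.000243), and the control course read 123 at 16 h and 150 at 0 h. TIMP3, an inhibitor of metalloproteinases, read 487, 478 and 388 at 16 h, against 1761, 1226 and 545 at 0 h (-1.21, adjusted p = 0.00651). The 16 h levels of TIMP3 were close and the 0 h levels were not, its control course read 481 at 16 h and 342 at 0 h, and the call was lost without course 1 (adjusted p = 0.107), without course 2 (0.156) and without the block (0.0944). CCN1, a matricellular protein induced by growth factors, read 40.9, 52.0 and 54.2 at 16 h, against 147, 121 and 124 at 0 h (-1.18, adjusted p = 0.00061). CEMIP2, a cell surface protein of hyaluronan breakdown, read 72.5, 64.3 and 43.4 at 16 h, against 196, 170 and 131 at 0 h (-1.26, adjusted p = 0.000297), and LGI2, a secreted leucine-rich repeat protein, read 6.6, 7.8 and 3.7 at 16 h, below the array median, against 64.2, 42.4 and 36.4 at 0 h (-1.51, adjusted p = 0.000294).

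The other large falls had varied roles. RFK, riboflavin kinase, was the brightest of the falls and read 1368, 1137 and 1293 at 16 h, against 3474, 3091 and 2463 at 0 h (-1.23, SE 0.161, adjusted p = 0.000144). Its control course read 1914 at 16 h and 1699 at 0 h. PHLPP2, a phosphatase that acts on AKT, read 185, 152 and 172 at 16 h, against 364, 460 and 367 at 0 h (-1.15, adjusted p = 6.31e-05), but its second probe set changed by 0.28. ARHGAP19 and ARHGAP29 changed by -1.15 and -1.30. ARHGAP19 read 49.8, 44.1 and 51.6 at 16 h, against 124, 128 and 128 at 0 h. GULP1, an engulfment adaptor, GASK1B, a Golgi-associated protein, ABHD8 and NECAB2, a calcium-binding protein of neurons, changed by -1.32, -1.32, -1.19 and -1.15. TMEM117, at 28.5, 28.8 and 2.8 at 16 h, against 53.1, 81.9 and 41.4 at 0 h (-1.12, adjusted p = 0.032), moved as far in the control course (-1.16).

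The call was kept in 13 of the 15 largest falls without the block, in 11 without course 1, in 12 without course 2 and in 14 without course 3. TIMP3 and TMEM117 lost it without the block (adjusted p = 0.0944 and 0.15). GULP1, TIMP3, ABHD8 and TMEM117 lost it without course 1 (0.0682, 0.107, 0.075 and 0.0682), TIMP3, NECAB2 and TMEM117 without course 2 (0.156, 0.0554 and 0.214), and TMEM117 without course 3 (0.109).

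**Figure D2:**
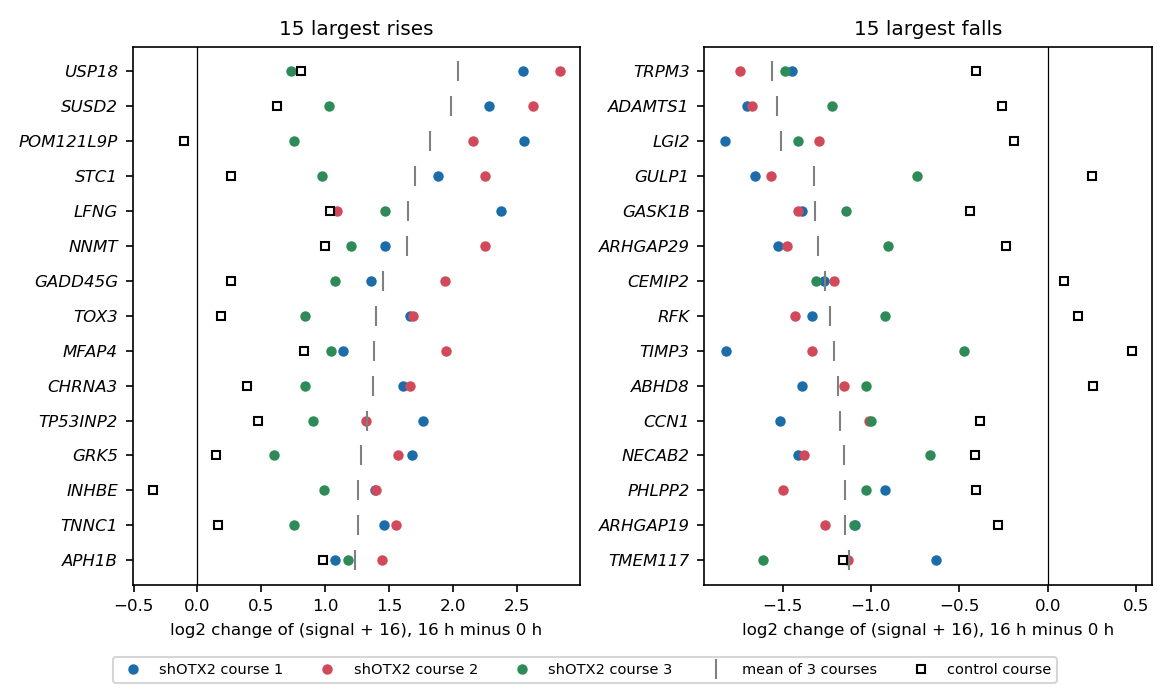
Change of log2(signal + 16) from 0 h to 16 h in each shOTX2 course (filled circles), their mean (grey bar) and the control course (open squares), for the 15 largest rises at the left and the 15 largest falls at the right. Course 3 had the smallest change in 13 of the rises and 9 of the falls, and the control course lay nearer to 0 than the mean in most genes. The genes were chosen by their shOTX2 change, which favours this.

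The courses did not contribute equally. Course 3 had the smallest change of the 3 courses in 58.4% of called rises and in 55.4% of called falls. Its 0 h array was the one nearest to the 16 h side in 12 of the 15 largest rises and 11 of the 15 largest falls, and in 267 of the 442 called rises and 224 of the 350 called falls. The control course at 0 h lay beyond all 3 shOTX2 arrays at 0 h, on the side of the 16 h change, in 8 of the 15 rises and 9 of the 15 falls. Over all called genes this held for 52.0% of rises and 52.9% of falls, whereas over all genes tested the control was above all 3 in 27.1% and below all 3 in 23.8%. Since the same 0 h arrays helped to choose the called genes, these shares are a description. For course 3 the shares over all genes tested are not given here. The part of the 0 h arrays, of RNA quality and of time in culture in the calls was not tested.

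The control course moved the same way in 354 of the 442 called rises (80.1%) and in 245 of the 350 called falls (70.0%), against 56.7% of all genes tested. The median control change was smaller, at 0.18 among called rises and -0.13 among called falls. Since these genes were chosen by their change in the shOTX2 arrays, that choice alone favours a smaller control change, and the medians are a description. The control change was as large as the shOTX2 mean in 30 rises and 13 falls. With a single pair of control arrays, 94 genes (0.676%) were at least 2-fold higher at 16 h there and 66 (0.475%) at least 2-fold lower, and 3 and 2 of the called genes reached that size in the same direction. The SD of the change over genes was 0.36, 0.41 and 0.33 in shOTX2 courses 1, 2 and 3 and 0.34 in the control course.

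The difference between the arms in the change from 0 h to 16 h was called for no gene (0.0% of 13903) by limma. Unadjusted, 1091 genes had a p under 0.05, and the lowest adjusted p was 0.285. Without course 3, 18 genes were called, 15 of them with the larger rise in shOTX2. The control groups held 1 array each and were assumed to vary like the shOTX2 groups. A change at 16 h is thus shown for the shOTX2 arrays, and for no single gene was it shown to differ from the control course with all arrays in the fit.

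**Figure D3:**
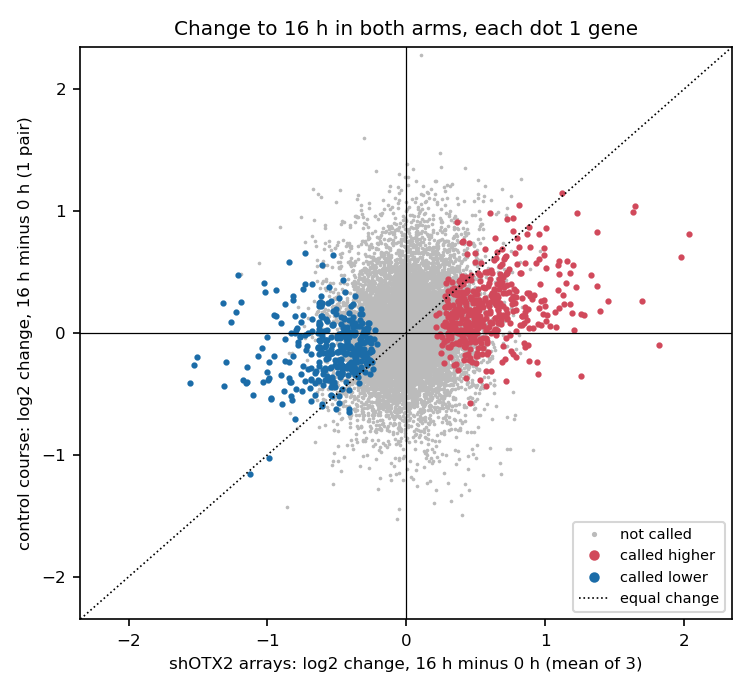
Log2 change from 0 h to 16 h in the shOTX2 arrays (horizontal, mean of 3 courses) and in the control course (vertical, 1 pair) for each of 13903 genes, with called rises in red, called falls in blue and equal change as the dotted line. Called rises lie mostly above 0 on the control axis (80.1%) and called falls mostly below it (70.0%), closer to 0 than to the dotted line. Called genes were chosen by their shOTX2 change, which favours this.

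Cell cycle transcripts had negative median changes to 16 h in both arms. All shares of list members called stand beside 5.70% of all genes tested (3.18% higher and 2.52% lower). Of 58 tested genes of the G1/S transition and DNA replication 6 fell (10.3%) and none rose, 51 had a negative change, and the median change was -0.24, against 0.0004 for all genes; in the control course the median was -0.29. GINS1, a subunit of the replicative helicase, read 681, 687 and 553 at 16 h, against 1166, 1340 and 1064 at 0 h (log2 change -0.88, adjusted p = 0.00275), and the control course read 715 at 16 h and 1003 at 0 h. CCND3, a G1 cyclin, changed by -0.75 and TK1, thymidine kinase, by -0.54, both with overlapping groups. Of the list 1 fall was called without the block, 2 without course 1, 1 without course 2 and 6 without course 3. Of 65 tested G2/M and mitotic genes none rose and 3 fell (4.62% called, near the 5.70% of all genes), with a median of -0.19, and -0.38 in the control course. These were ANLN, KIF20B and CDCA5, at -0.64, -0.55 and -0.51 (adjusted p from 0.0389 to 0.0446), all lost without any one of the courses (adjusted p from 0.0537 to 0.382).

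Among 24 cell cycle inhibitors and antiproliferative genes 3 rose and 1 fell (16.7% called, against 5.70% of all genes). Without the block 1 rise was called, and without course 2 also 1. The rises were those of GADD45G, CCNG2, an atypical cyclin of quiescent cells, and TOB1, an antiproliferative adaptor. CCNG2 read 1174, 1440 and 1552 at 16 h, against 660, 1033 and 1211 at 0 h (0.55, adjusted p = 0.00283). The fall was that of GADD45A, also in the list of p53 targets, which fell by 0.61 on the log2 scale, and in the control course it read 667 at 16 h and 569 at 0 h. TIGAR, a p53 target that lowers glycolytic flux, read 668, 726 and 812 at 16 h, against 1128, 1112 and 1144 at 0 h (-0.61, SE 0.078, adjusted p = 0.000116). Of 24 p53 targets GADD45A and TIGAR fell and none rose (8.33% called, against 5.70% of all genes), and without the block 1 fall was called.

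Of 27 proneural and neurogenic factors 2 rose and none fell (7.41% called, against 5.70% of all genes). HES6, a HES-family factor that promotes neurogenesis, read 3636, 2848 and 2357 at 16 h, against 1640, 1396 and 1793 at 0 h (0.85, adjusted p = 0.00166). NHLH1, a bHLH factor of early neurons, read 21.5, 47.5 and 29.3 at 16 h, against 2.1, 5.7 and 9.2 at 0 h (1.15, adjusted p = 0.00124), while the control course was higher than both, at 76.4 at 16 h and 53.5 at 0 h. Of 44 genes of neuronal differentiation and cytoskeleton 3 rose and 1 fell (9.09% called, against 5.70%), and without the block none was called. SYP, a synaptic vesicle protein, changed by 0.77, SYT1, the vesicle calcium sensor, by 0.28 and STMN1, a microtubule-destabilising protein, by 0.30, but a second STMN1 probe set changed by -0.35. In the control course SYP and SYT1 moved as far, by 0.83 and 0.30, and STMN1 by 0.001. RELN, the secreted protein reelin, fell by 0.49 on the log2 scale with overlapping groups, and its control change was -0.15. Of 27 axon guidance genes SEMA6D rose (0.52) and SEMA3A fell (-0.39), 7.41% of the list, and without the block neither was called. Their control changes were 0.24 and -0.32.

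The Notch list had 4 rises and 1 fall among 22 genes tested, 22.7% called against 5.70% of all genes. Beside LFNG these were MAML2, a coactivator of Notch (0.65), NUMBL, a relative of the Notch inhibitor NUMB (0.57), and ADAM10, the protease that cleaves Notch at the surface (0.30). NUMBL had a second probe set at -0.30. DLL4, a ligand, read 3.8, 2.6 and 3.5 at 16 h, against 25.4, 23.9 and 18.1 at 0 h (-0.99, adjusted p = 0.00255). The 16 h levels lay below the array median, and the control course read 3.6 at 16 h and 23.9 at 0 h. Without the block 1 rise and 1 fall of the list were called.

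The list of secreted and matrix genes had the largest share of calls, with 3 rises and 6 falls among 36 genes (25.0%, against 5.70% of all genes). Without the block 2 rises and 2 falls were called. Its members had been listed with earlier results of these arrays in view, so the count is no independent evidence. The rises were SUSD2, STC1 and SPARC, a matricellular protein, at 0.70. COL4A3, a basement membrane collagen, read 398, 813 and 869 at 16 h, against 884, 1390 and 1199 at 0 h (-0.78, adjusted p = 0.000566), although 1 of its 5 probe sets changed by 0.11. Of 23 genes of the TGF-beta and BMP response 1 rose and 2 fell (13.0% called, against 5.70% of all genes), and without the block 1 fall was called. TGFBI, a matrix protein induced by TGF-beta, read 8.1, 1.8 and 2.3 at 16 h, against 26.3, 23.0 and 21.5 at 0 h (-0.99, adjusted p = 0.0052). LTBP1, which holds latent TGF-beta in the matrix, changed by -0.68, and BMPR2, a BMP receptor, by 0.47.

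Of 25 genes of the unfolded protein response 3 rose and none fell (12% higher, against 3.18% of all genes). The median change of this list was 0.122 in shOTX2 and 0.124 in the control course, and without course 2 1 rise was called. ERN1, the endoplasmic reticulum sensor IRE1, read 690, 444 and 591 at 16 h, against 280, 280 and 394 at 0 h (0.82, adjusted p = 0.00215), and HERPUD1 and DNAJB9, which help to clear and fold proteins there, changed by 0.59 and 0.36. Of 37 genes of the integrated stress response 4 rose and none fell (10.8% higher, against 3.18%), DDIT4, an inhibitor of mTORC1, by 0.95, GDF15 by 0.57, AARS1 by 0.48 and SLC38A2 by 0.22 on the log2 scale. Without the block none of these 7 genes was called, and the median change of the integrated stress response list was 0.11 in shOTX2 and 0.20 in the control course. Of 33 hypoxia and glycolysis genes 4 rose, among them STC1, and none fell (12.1% higher, against 3.18%), and without the block 2 rises were called. CA12, a carbonic anhydrase, read 2685, 2298 and 2829 at 16 h, against 1690, 1210 and 1646 at 0 h (0.79, adjusted p = 0.000566), with 3052 at 16 h and 1935 at 0 h in the control course. NDRG1 changed by 0.78 and P4HA2 by 0.53. None of 15 heat shock genes was called, and HSF1 and CHORDC1 had the largest changes (-0.56, adjusted p = 0.126, and 0.45, adjusted p = 0.188). Of 21 interferon genes USP18 and UBE2L6, an enzyme that attaches ISG15, rose and none fell (9.52% higher, against 3.18%), and the median of the list was 0.02. Without the block 1 of these rises was called.

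Of 35 photoreceptor genes RBP3 and RXRG rose and PDE6H fell (8.57% called, against 5.70% of all genes, and none without the block), with a median of -0.12 in shOTX2 and 0.28 in the control course. PDE6H, a cone phosphodiesterase subunit, read 816, 547 and 926 at 16 h, against 1261, 1543 and 1192 at 0 h (-0.81, adjusted p = 0.00951). RBP3, the retinoid-binding protein of the photoreceptor matrix, read 725, 433 and 546 at 16 h, against 383, 279 and 392 at 0 h (0.65, adjusted p = 0.0358). Neither call was kept without the block (adjusted p = 0.0776 and 0.332) or without course 2 (0.13 and 0.189). The control course changed by 0.27 for PDE6H and by 0.40 for RBP3. RXRG changed by 0.46 with overlapping groups, and by 0.44 in the control course. Its call was lost without the block (adjusted p = 0.587) and without course 2 (0.285). Of 33 MYC and ribosome biogenesis genes only MYCL was called (0.67, adjusted p = 0.00536), 3.03% against 5.70% of all genes. Among 31 immediate early genes DUSP5 rose (0.60) and CCN1 fell (6.45% called, against 5.70% of all genes). FZD5, a WNT receptor (-0.56), was the call among 26 WNT genes (3.85%), and GFM1 (-0.50) among 29 of mitochondrial translation (3.45%). SC5D (-0.69) and ELOVL6 (-0.44) fell among 26 lipid synthesis genes (7.69%), and PDLIM3 (-0.61) among 11 WNT and SHH group markers (9.09%). PDE6H was the call among 9 group 3 and group 4 markers (11.1%). Among 15 mesenchymal markers SPARC rose (0.70) and TWIST1 fell (-0.46), 13.3% called. In the control course DUSP5 changed by 0.45, CCN1 by -0.39, FZD5 by -0.38, GFM1 by -0.03 and SC5D by -0.56. There ELOVL6 changed by -0.12, PDLIM3 by 0.23, SPARC by 0.33 and TWIST1 by -0.32. No astrocyte or oligodendrocyte marker was called among 12, and CSPG4 and MBP had the largest changes (0.64, adjusted p = 0.0538, and 0.48, adjusted p = 0.288). Of the 50 called genes named through a list alone, TIGAR and CA12 kept their call without the block and without each course in turn, and the other 48 lost it under at least 1 of these settings.

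**Figure D4:**
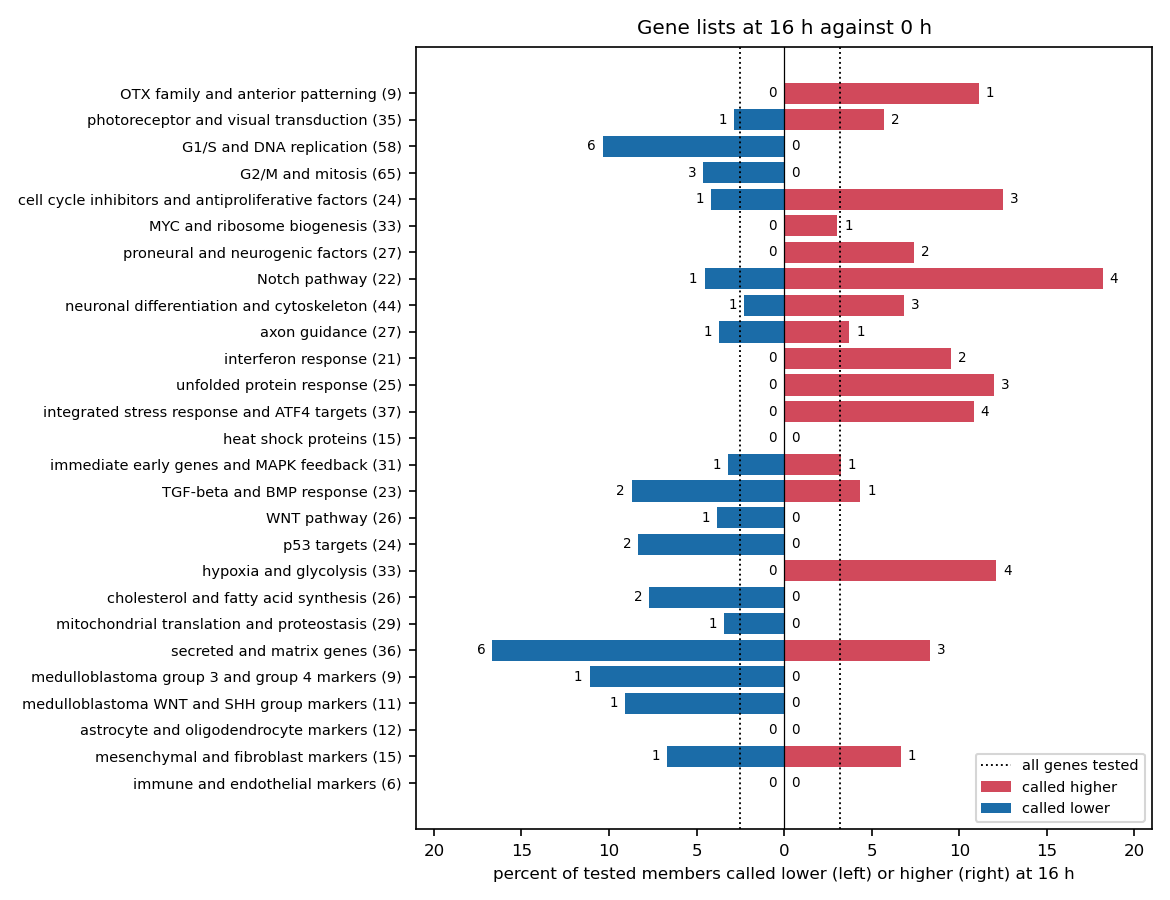
Percent of the tested members of each gene list called lower (blue, to the left) or higher (red, to the right) at 16 h against 0 h, with the number called beside each bar, the number tested in brackets and the share of all genes called as dotted lines. The Notch list had the largest share of rises (4 of 22), and the list of secreted and matrix genes the largest share of falls (6 of 36).

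The means at 16 h and 0 h do not use the later arrays, although these entered the fit and its estimate of the spread. At 8 h the mean changes of the 15 largest rises lay between -0.33 and 0.64 and those of the 15 largest falls between -0.51 and 0.31. Setting the 96 h arrays against the 24 h arrays, none of which is a 16 h or 0 h array, 21.8% of all genes were called higher and 25.5% lower. Among the 442 genes called higher at 16 h, 188 (42.5%) were higher at 96 h than at 24 h and 128 (29.0%) lower. Among the 350 called lower, 199 (56.9%) were lower still and 46 (13.1%) higher.

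TOX3 averaged 128 ± 53.2, 138.5 ± 45.0, 349 ± 11.9, 475 ± 29.7, 946 ± 111 and 1366 ± 159 in shOTX2 arrays at 0, 8, 16, 24, 48 and 96 h (SD, n = 3 each). Its change from 24 h to 96 h was 1.49 (adjusted p = 9.21e-08). GRK5, STC1, NNMT and MFAP4 were also higher at 96 h than at 24 h, but STC1, NNMT and MFAP4 averaged highest at 48 h. From 16 h through 24 and 48 h to 96 h MFAP4 averaged 58.8 ± 7.42, 149 ± 90.8, 953 ± 104 and 736 ± 321, while the control course read 77.5 at 96 h. NHLH1, barely above the array median at 16 h, averaged 565 ± 76.5 at 96 h, and HES6 5580 ± 643.

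TNNC1 and APH1B turned back. At 16, 24, 48 and 96 h TNNC1 averaged 236 ± 23.6, 522 ± 36.4, 1000 ± 197 and 151 ± 40.7. APH1B averaged 1107 ± 350, 1075 ± 299, 737 ± 86.4 and 365 ± 123 at the same times, while the control course read 1469 at 96 h. Among the falls TIMP3, RFK, PHLPP2, GASK1B and TRPM3 fell further, TIMP3 to 32.3 ± 13.2 and RFK to 354 ± 58.4 at 96 h. CCN1 and NECAB2 went back up, CCN1 to 84.2 ± 7.30 at 96 h, against 34.3 ± 18.7 at 24 h (1.05, adjusted p = 6.84e-05). OTX2 averaged 4052 ± 253 at 24 h and 4188 ± 302 at 96 h, with no called change between them (0.05, adjusted p = 0.562).

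**Figure D5:**
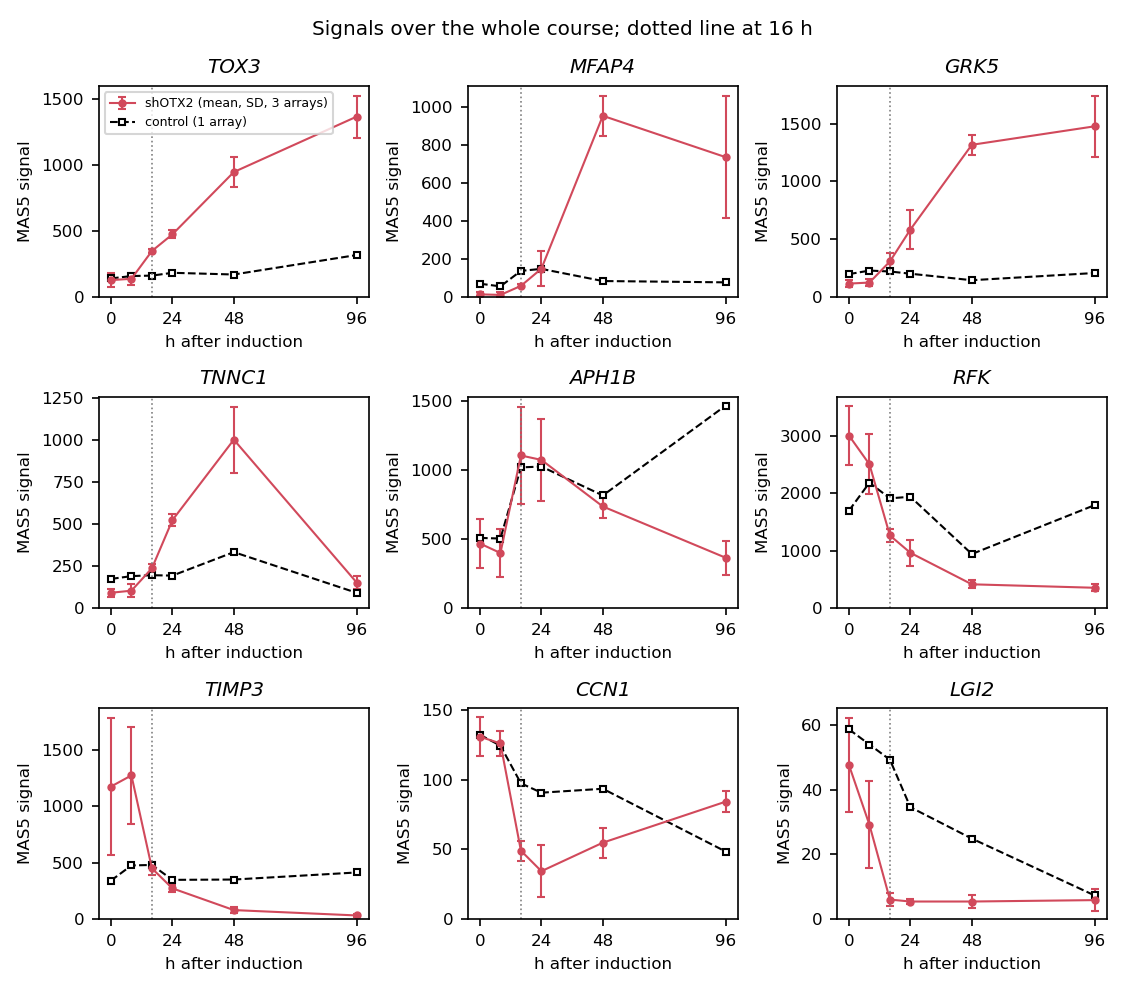
MAS5 signal (linear axis) of 9 of the largest movers at 0 to 96 h, with shOTX2 arrays as mean and SD of 3 (red) and the control course as single arrays (black, dashed), and 16 h marked by the dotted line. TOX3 and GRK5 went on upward, and MFAP4 rose to 48 h and averaged lower at 96 h. TNNC1 and APH1B turned back, RFK and TIMP3 went on downward, CCN1 recovered in part and LGI2 stayed at its 16 h level.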

How the data were processed

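The 6 shOTX2 arrays and the 2 control arrays are compared, with all 24 in the fit. The deposited values are MAS5 signal intensity, linear, made with MAS5 and GCOS per the submitters' processing notes (versions are not given in the sources used here). Each array had been scaled to a trimmed mean near 100.01 (2% trimmed at each end), so a shift shared by most genes cannot be seen. There are no detection calls. The platform annotation gave 41091 of 54675 probe sets 1 gene symbol. Probe sets above the array median in at least 3 arrays were kept, and the brightest represented its gene, which gave 13903 genes.

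Signals were taken as log2(signal + 16), which understates changes of dim genes. limma 3.58.1 in R 4.3.3 was fitted to the 12 groups of arm and time, with the course as a block and the control course as its own, 10 residual degrees of freedom, and eBayes with a trend. Adjusted p-values are Benjamini-Hochberg over all genes, called under 0.05. The script was tested on simulated data. The comparison pairs arrays by course: deviations of 16 h and 0 h arrays of a course correlated across genes at 0.51, 0.20 and 0.24, and all 45 same-course pairs at 0.16 to 0.56, while 16 h and 0 h arrays of different courses correlated at -0.37 to 0.22, so the highest of these is above the value of course 2. Deviations from a group mean cancel over the courses, so the values of different courses are tied to those of the same course. They are no separate evidence for the block. The members, the 27 lists (902 genes, 697 tested) and the rule for named genes were chosen with earlier results of these data known. The rule names the OTX family, the 15 largest called rises and falls with 1 sign in all courses, up to 4 called genes of each list each way, and the 2 largest changes of a list with none. Genes in the time course paragraphs, and HES6 and NHLH1 at 96 h, were picked from these after values were seen. The promoter genes other than CRX were picked outside this rule, also after values were seen, from called genes with the core in their window. Promoter windows came from RefSeq, GRCh38.p14. Motifs of the interferon response (GAAANNGAAA), E-box (CACGTG) and E2F (TTTGGCGC) type were also counted on both strands: they were in 1.11%, 11.1% and 1.67% of called rises, 2.38%, 10.5% and 2.04% of called falls, and 2.48%, 9.88% and 1.00% of all windows.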

Additional observations from a re-analysis of the deposited data

How the results depend on the processing

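The number of called genes depended most on the course as a replicate block. Without the replicate block 142 genes were called (88 higher, 54 lower), against 792 (442 and 350) with it, all arrays in both fits. In the 6 shOTX2 arrays alone, 610 were called with the replicate block (315 and 295) and 0 without it by limma (1300 at an unadjusted p under 0.05). Without the mean-variance trend 444 were called (267 and 177). When each of the 27081 kept probe sets was tested, 1174 probe sets, not genes, were called, 694 of them higher. Leaving out 1 course gave 152 to 629 calls, 100 to 341 higher and 52 to 288 lower, and 0 to 18 calls for the difference between the arms. OTX2 was called after the stricter filter (-0.18), median centring (-0.22) and quantile normalization (-0.21), and its adjusted p ran from 0.0153 to 0.671 over all settings. STMN1 was at -0.026 (adjusted p = 0.924) when probe sets were averaged. Centring on medians shifted the median change over all genes by -0.03 and gave 332 higher and 373 lower calls. The causes were not tested. Of 81 called named genes, 50 lost their call without the replicate block, 48 without course 2 and 35 without course 1. The counts for 96 h against 24 h and for the control direction stayed within 1.5 times. Signals near the array median limit LGI2, ABHD8, DLL4 and TGFBI.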

Other observations

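Pairs among the largest movers lay near each other in the RefSeq annotation of GRCh38.p14. SUSD2 and POM121L9P, both among the 15 largest rises, lie on chromosome 22 with 3 genes between them, 1 of them protein coding. TRPM3 and CEMIP2, both among the 15 largest falls, lie on chromosome 9 with 9 genes between them, none of them protein coding. Whether such nearness is more frequent than among other genes was not tested.

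Further genes with the OTX-type core in their window and a call at 16 h included SPSB4, an adaptor of a ubiquitin ligase (log2 change 1.13), DENND2A (0.73), TUBA4A, an alpha tubulin (0.57), BIN1, a membrane-bending protein (0.52), and LMO3, a LIM-only cofactor (-0.65). Their control changes were 0.31, 0.50, 0.04, 0.23 and -0.31. None of these 5, picked after values were seen, was called without the block (adjusted p from 0.0721 to 0.591). PLA2G12B (0.97) and NOA1 (0.50), called rises that also held the core, kept their call without the block (adjusted p = 0.00649 and 0.0484). Without course 2 their adjusted p was 0.0524 and 0.049. ABHD4 and the called genes with the core that are not named here lost their call without the block.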
